A study of Mus musculus with 192 samples.

Results

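The 10 genes described here encode matrix-degrading proteases, parts of the plasminogen system and the matrix proteins around them: Mmp8, Mmp9, Mmp12 and Mmp14, their inhibitor Timp1, the urokinase system of Plau, Plaur and Serpinb2, and the matrix glycoproteins Thbs1 and Fn1. They were chosen by name, as the rows of these 10 symbols among 23481 gene rows, and were followed over all 64 groups of a ligand combination experiment. Earlier results of these data were known when they, and a wider list of related genes described below, were chosen. Their shares of calls beside those of all genes are therefore descriptive. The cells were dendritic cells grown with GM-CSF from bone marrow of female C57BL/6J mice aged 6 to 8 weeks, a culture that also yields macrophage-like cells, and were plated at 100000 per well. Ctrl wells received no ligand. The other wells received, for 6 hours, PAM, LPS, HMW, Zymosan (depleted zymosan), SeV, cGAMP (the 3',3' form) or CpGB, as named in the labels, either alone (7 groups), in all 21 pairs or in all 35 triplets. Each group had 3 libraries, and values for the libraries are given in the order of their replicate numbers. Nothing in the labels says that the 3 came from separate cultures or animals, so p-values measure the spread between these libraries, which may be technical. LPS is the classical ligand of TLR4, CpG DNA of TLR9 and cyclic dinucleotides of STING.

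Matrix metalloproteinases are zinc enzymes that cut collagens, elastin and other matrix proteins, and are held in check by secreted tissue inhibitors such as Timp1. Urokinase, made from Plau, turns plasminogen into plasmin, a broad protease that removes fibrin and activates some metalloproteinases; its receptor, made from Plaur, keeps that activity on the cell surface, and the serpin made from Serpinb2 blocks it. In dendritic cells and macrophages these genes are known for their part in migration through tissue, in wound repair and in the response to microbial products.

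The 250 bases upstream of the annotated start site are shown for the 3 genes whose RefSeq windows (build GRCm38.p6, 250 bases before to 50 after the start) held an AP-1 element, TGANTCA, which is its own reverse complement, and for Timp1, the gene with the largest average effect of a ligand described here, whose window held none, as did those of Mmp8 and Mmp14. AP-1 matches are in capitals and the rest is in lower case, written 5′ to 3′ on the plus strand, where all 4 genes lie.
Plaur, chr7:24462233-24462482: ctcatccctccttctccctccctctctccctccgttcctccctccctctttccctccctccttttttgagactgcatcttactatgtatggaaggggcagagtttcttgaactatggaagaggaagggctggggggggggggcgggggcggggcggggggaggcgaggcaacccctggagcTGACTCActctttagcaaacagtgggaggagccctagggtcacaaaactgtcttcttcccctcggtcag
Serpinb2, chr1:107511173-107511422: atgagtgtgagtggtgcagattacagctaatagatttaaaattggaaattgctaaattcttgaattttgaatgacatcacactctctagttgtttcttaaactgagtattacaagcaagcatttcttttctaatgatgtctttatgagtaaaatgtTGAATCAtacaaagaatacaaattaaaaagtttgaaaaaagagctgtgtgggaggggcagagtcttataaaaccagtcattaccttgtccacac
Mmp12, second start, chr9:7347124-7347373: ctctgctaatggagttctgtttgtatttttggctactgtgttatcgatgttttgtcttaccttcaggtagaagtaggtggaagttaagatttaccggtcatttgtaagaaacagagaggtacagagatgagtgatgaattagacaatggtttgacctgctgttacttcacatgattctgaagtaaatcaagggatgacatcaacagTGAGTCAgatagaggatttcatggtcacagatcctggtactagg
Timp1, chrX:20869916-20870165: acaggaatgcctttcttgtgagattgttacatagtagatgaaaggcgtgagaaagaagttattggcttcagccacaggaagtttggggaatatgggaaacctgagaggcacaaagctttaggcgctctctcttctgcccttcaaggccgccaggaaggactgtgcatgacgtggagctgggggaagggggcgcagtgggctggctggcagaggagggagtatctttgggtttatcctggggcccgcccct
The match is TGACTCA at -69 to -63 in Plaur, TGAATCA at -94 to -88 in Serpinb2 and TGAGTCA at -44 to -38 in Mmp12, counted from the start site. AP-1 elements stood in 7.81% of 32851 RefSeq windows of this length. Windows were held for 6 of the 10 genes (8 windows). An NF-kB element, GGGANNNNCC, was found in Plaur (-46 to -37) and Mmp14 (13 to 22) and in 20.7% of all windows. A PU.1 element, GAGGAA, was found in Plaur, Mmp8 and Mmp12 and in 28.3% of all windows. An interferon-stimulated element, GAAANNGAAA, was found in 0 of the 6 genes and in 3.44% of all windows. Both strands were searched. A match describes the letters of the window only. No window was matched for Mmp9, Plau, Thbs1 and Fn1.

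Depth ran from 46564 to 610234 UMI counts per library, with a median of 171616.5, and from 61823 to 89530 in Ctrl, so that Ctrl values are among the less precise. The 10 genes together held 0.447 to 1.22% of the counts of a library. All 10 passed a filter on low counts that kept 4720 genes, but Timp1 and Serpinb2 had 0 of 3 Ctrl libraries above its minimum of 58.3 CPM and passed through stimulated groups in which they were high. Levels are CPM, UMI counts scaled to the library's total over the tested genes and its TMM factor; they are not corrected for length and are not compared between genes. In these bulk libraries, fewer cells of a type and less RNA per cell cannot be told apart. Of the 7 dendritic cell markers, Itgax, H2-Aa, H2-Ab1, Cd74 and Ccr7 were above 10 CPM in Ctrl, while Flt3 and Zbtb46 were at 4.62 CPM and 0. The summed level of the macrophage and monocyte markers was 11591 CPM in Ctrl and 6965 to 12182 over all groups, and that of the neutrophil markers was 769 and 536 to 967, with Elane and Mpo at 0 in Ctrl. Fibroblast, mast cell, B cell and T cell markers summed to at most 12.8, 12.1, 6.25 and 1.95 CPM in any group.

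Against Ctrl, a gene was called changed at an adjusted p under 0.05 (edgeR's quasi-likelihood test over all libraries, Benjamini-Hochberg over 4720 genes) and a log2 fold change of at least 1 either way. With single ligands the 10 genes gave 15 calls in 70 tests, 10 higher and 5 lower, and every ligand but HMW and Zymosan changed at least 1 of them. Of the 10 higher calls, 2 were of Serpinb2, which passed the filter through groups in which it was high. PAM changed 6 genes: Mmp9, Mmp14, Serpinb2 and Thbs1 rose and Mmp12 and Plau fell, where 8.01% and 5.89% of all tested genes were called higher and lower. CpGB changed 5: Mmp14, Serpinb2 and Thbs1 rose and Mmp12 and Plau fell, against 10.8% and 6.27% of all genes. LPS raised Mmp14 and lowered Mmp12, against 14.6% and 9.60%. SeV raised Thbs1, against 10.5% and 5.13%, and cGAMP raised Plau, against 11.7% and 5.91%. HMW and Zymosan gave 0 calls by edgeR and 0 by DESeq2, with 1 and 2 of the 10 genes at an unadjusted p under 0.05; over all genes HMW called 0.953% higher and 0.0212% lower, and Zymosan 4.43% and 1.82%. The median log2 fold change of the 10 genes lay between -0.06 with cGAMP and 0.18 with SeV, and that of all tested genes between -0.09 and 0.03.

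**Figure D1:**
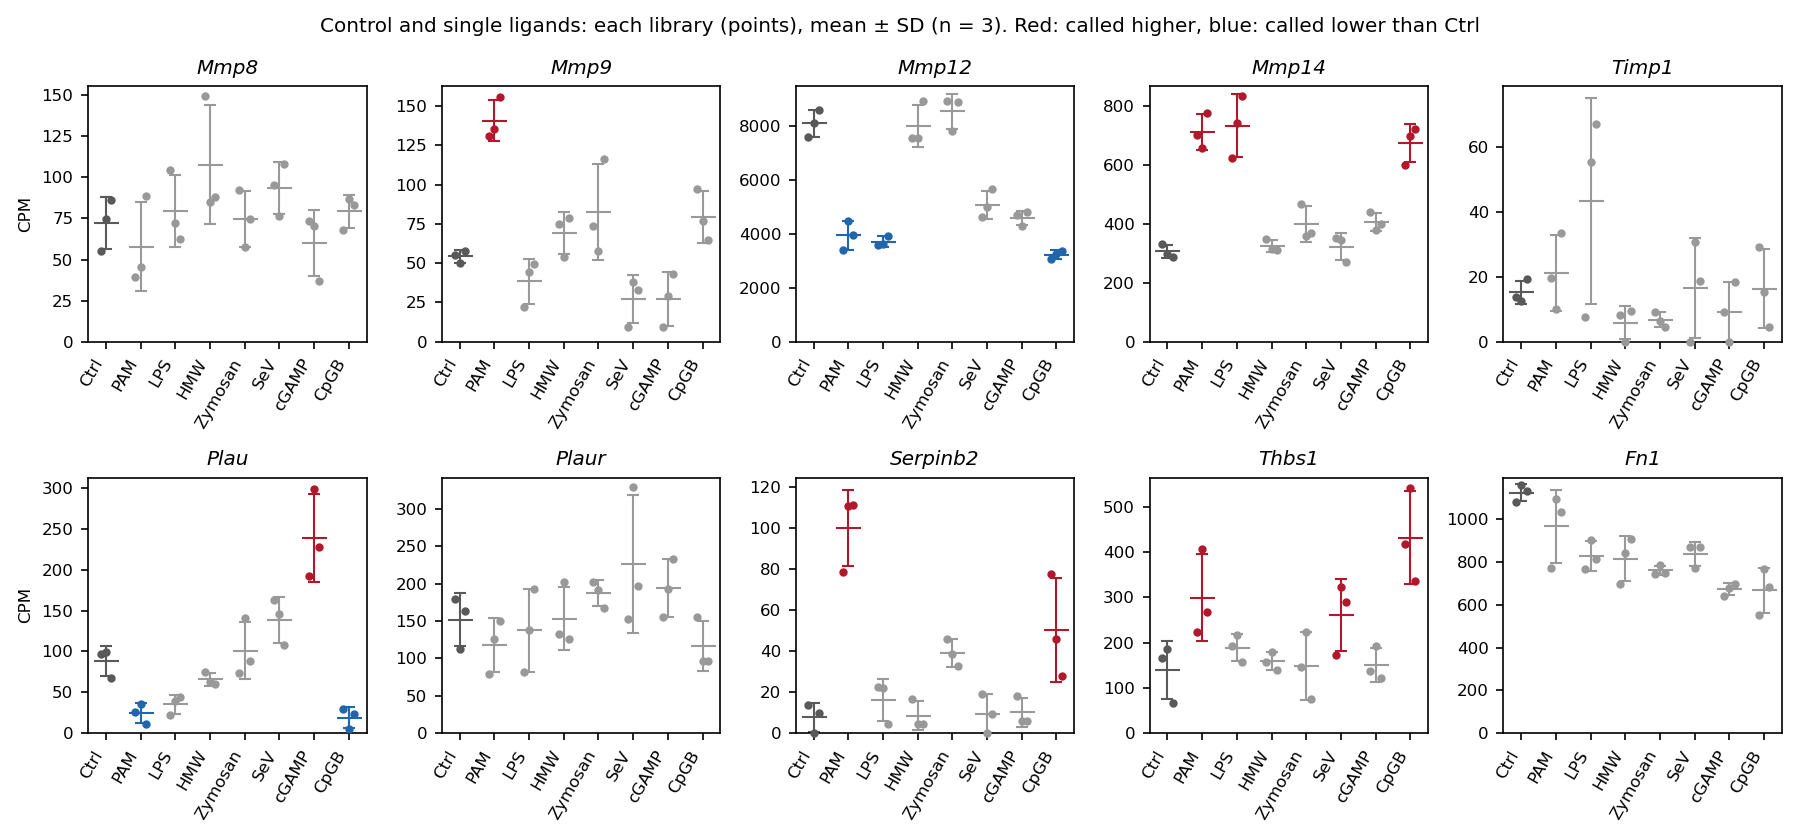
Level of each of the 10 genes in CPM (vertical axis, linear) in Ctrl and the 7 single-ligand groups; points are the 3 libraries of a group and the bar is their mean with its SD. Mmp14 stood at 602 CPM or higher in each of the 9 libraries with PAM, LPS or CpGB and at 332 or lower in Ctrl, Mmp12 was lower with those 3 ligands, and Plau was highest with cGAMP.

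Mmp14 (chr14:54431612-54445364, plus strand of GRCm38, GENCODE M21) encodes the membrane-anchored metalloproteinase MT1-MMP, which cuts collagen at the cell surface and activates the gelatinase made from Mmp2. Its level was 332, 299 and 288 CPM in the 3 Ctrl libraries, 625, 743 and 837 with LPS, 702, 659 and 778 with PAM and 602, 699 and 724 with CpGB. These 3 ligands overlapped one another and lay entirely above Ctrl and the other 4 ligands. The log2 fold changes were 1.29 ± 0.20 (SE) with LPS (adjusted p = 1.82e-09), 1.22 ± 0.20 with PAM (2.53e-08) and 1.16 ± 0.20 with CpGB (1.22e-07). With library sizes alone as the scale, the log2 fold change fell under the threshold with LPS (0.99) and CpGB (0.94), and so it did after all libraries were thinned to the lowest total (0.88 and 0.85). The cGAMP libraries (440.1, 379.8 and 399 CPM) and the Zymosan libraries (469, 358 and 369) also lay above all 3 of Ctrl, without a call (log2 0.40 and 0.36, adjusted p = 0.165 and 0.337). HMW and SeV overlapped Ctrl. Over all 64 groups, the 49 groups that held PAM, LPS or CpGB had means of 446 to 857 CPM and the 15 groups with none of them 307 to 437, with no overlap of the group means. Ctrl was the lowest of the 64 groups and PAM+LPS+HMW the highest (973, 826 and 773 CPM). Of the 56 combinations 34 were called higher than Ctrl, all of them holding PAM, LPS or CpGB, as most combinations do by design. In 50 of 56 every library lay above Ctrl.

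Mmp12 (chr9:7344381-7369499, plus strand) encodes macrophage elastase, a secreted enzyme that cuts elastin. It stood, from 2090 counts in Ctrl, at 7576, 8095 and 8584 CPM. With CpGB the libraries stood at 3047, 3252 and 3375, with LPS at 3566, 3619 and 3933 and with PAM at 3412, 4464 and 3945 CPM. All 9 lay below Ctrl, and CpGB lay below all libraries of every other single ligand. The log2 fold changes were -1.32 ± 0.13 with CpGB (adjusted p = 6.84e-17), -1.13 ± 0.13 with LPS (2.38e-13) and -1.04 ± 0.13 with PAM (2.26e-11). The call with PAM rests on the fold threshold: leaving out PAM replicate 1 gave -0.91 with an adjusted p of 2.72e-07, and leaving out Ctrl replicate 2 or 3 gave -0.996 or -0.97. Without the filter on low counts the values were -0.84 with PAM and -0.87 with LPS. The cGAMP libraries (4676, 4301 and 4794 CPM) and SeV libraries (4606, 4982 and 5642) were also below all of Ctrl, at log2 -0.82 ± 0.13 (adjusted p = 1.19e-07) and -0.67 ± 0.13 (2.36e-05), short of the fold threshold. The cGAMP value passed it with library sizes alone (-1.06) and after thinning all libraries to the lowest total (-1.06). HMW (7542, 7565 and 8909 CPM) and Zymosan (8908, 7800.4 and 8892) overlapped Ctrl. The summed macrophage and monocyte markers stood at 11591 CPM in Ctrl, 11487 with PAM, 8590.2 with LPS and 10298 with CpGB, a sum over markers of which some were higher and some lower than in Ctrl. Lyz2 made up 9450.1 CPM of it in Ctrl, 7852 with PAM, 6186 with LPS and 7702 with CpGB. Csf1r stood in the same order at 1718, 1343, 654 and 974 CPM, lower with each ligand, while Cd14 stood at 362, 2270.3, 1291 and 1368, higher with each. The part of these markers in the Mmp12 differences was not tested. In 52 of the 56 combinations every library lay below Ctrl, and 14 were called lower, 12 of them holding CpGB. The highest group was HMW+Zymosan (8972, 8132 and 8542 CPM), the lowest CpGB alone, and 7 of the 10 highest groups held Zymosan.

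Mmp9 (chr2:164940780-164955850, plus strand) encodes gelatinase B, which cuts denatured collagen and basement membrane collagen, and is stored in neutrophil granules. Its level was 55.4, 49.9 and 57.6 CPM in Ctrl (14 counts in all) and 131, 136 and 156 with PAM. The PAM group had the highest mean of the 64 and did not overlap the Ctrl libraries; the next group by mean, PAM+HMW+CpGB, had 68.6, 122 and 70.3 CPM. The log2 fold change with PAM was 1.36 ± 0.52 (adjusted p = 0.0345). It was lost without any one of the 3 Ctrl libraries (adjusted p = 0.0761, 0.0938 and 0.0964), without PAM replicate 3 (0.085), with RLE factors (0.0639), with library sizes alone (0.0803) and by DESeq2 (0.119). The platelet marker list also stood highest in PAM alone, at 509 CPM against 416 in Ctrl; Pf4 made up 408 CPM of the Ctrl value, while Itga2b and Gp9 were at 0 there. The neutrophil marker sum was 902 CPM with PAM and 769 in Ctrl. Their part in the result was not tested. LPS (22.3, 44.3 and 49.2 CPM), cGAMP (9.17, 29.2 and 43.0) and SeV (9.56, 38.3 and 32.8) lay below all of Ctrl and did not pass the test (adjusted p = 0.648, 0.358 and 0.379). Of the 56 combinations 5 were called lower and 0 higher by edgeR, and in 37 every library lay below Ctrl. The lowest group, HMW+SeV, had 0, 5.10 and 15.9 CPM from 4 counts.

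Mmp8 (chr9:7558456-7568485, plus strand) encodes neutrophil collagenase. Its level was 55.4, 74.8 and 86.4 CPM in Ctrl, 149.7, 85.2 and 88.3 with HMW, the highest group mean of the 64, and 39.4, 45.2 and 88.9 with PAM, the lowest among single ligands. Each single ligand overlapped Ctrl, 0 of 7 single ligands and 0 of 56 combinations were called by edgeR, and neighbours in the order of the 8 group means overlapped throughout. The lowest group was SeV+cGAMP+CpGB (22.3, 26.6 and 42.4 CPM), and in 7 of 56 combinations every library lay below Ctrl.

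Timp1 (chrX:20870166-20874735, plus strand) encodes a secreted inhibitor of metalloproteinases that binds the precursor of gelatinase B. It stood at 13.9, 12.5 and 19.2 CPM in Ctrl, from 4 counts in all, and at 7.44, 55.4 and 67.1 with LPS (26 counts). The LPS group overlapped Ctrl through its first library, and no single ligand was called: with LPS the log2 fold change was 1.57 ± 0.82 (adjusted p = 0.0839), and it passed the test without LPS replicate 1 (2.03, adjusted p = 0.0184). With HMW, SeV and cGAMP 1 library each was at 0, which allows up to 13.4, 28.7 and 17.5 CPM at 3 counts. Combinations reached higher levels. PAM+LPS+Zymosan had 142, 141 and 209 CPM, the highest group, and LPS+SeV+cGAMP 70.5, 65.9 and 158, which overlapped it. Of the 56 combinations 19 were called higher than Ctrl, 15 of them holding LPS and 9 holding PAM, with log2 fold changes of 1.79 to 3.35. The 22 groups with LPS had means of 42.7 to 164 CPM (median 67.0) and the 42 without it 3.46 to 72.2 CPM (median 23.3). In the 15 groups without PAM, LPS and CpGB, group means lay between 3.46 and 19.7 CPM, the lowest in HMW+cGAMP from 2 counts.

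Plau (chr14:20836660-20843385, plus strand) encodes urokinase, the protease that activates plasminogen. Its level was 97.0, 99.8 and 67.2 CPM in Ctrl and 193, 298 and 227 with cGAMP. With PAM it was 26.2, 35.2 and 11.1, with LPS 22.3, 38.8 and 44.7 and with CpGB 29.1, 5.11 and 23.1 CPM. cGAMP lay above, and these other 3 ligands lay below, all libraries of Ctrl and of HMW, SeV and Zymosan. The log2 fold change was 1.50 ± 0.44 with cGAMP (adjusted p = 0.00279), -1.78 ± 0.63 with PAM (0.0267) and -2.25 ± 0.71 with CpGB (0.00548), where the CpGB value rests on 9 counts. With LPS it was -1.20 ± 0.57 and missed the threshold (adjusted p = 0.095), which it passed with library sizes alone (0.0285) and by DESeq2 (0.0419). The PAM call was lost without Ctrl replicate 1 or 2 (adjusted p = 0.0875 and 0.112) and without PAM replicate 1 or 3 (0.053 and 0.13), and the CpGB call without CpGB replicate 2 (-1.67, 0.0781). SeV (162, 146 and 108 CPM) lay above all of Ctrl without passing the test (adjusted p = 0.379), and HMW and Zymosan overlapped Ctrl.

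The 64 groups fell into a graded order for Plau. The 7 groups that held cGAMP and none of PAM, LPS and CpGB had means of 239 to 369.7 CPM, and the other 8 groups without PAM, LPS and CpGB 66.0 to 210.0. With PAM, LPS or CpGB present, the 15 groups that also held cGAMP stood at 42.2 to 160.3 and the 34 that did not at 16.4 to 98.1. SeV+cGAMP was highest (358, 508 and 243 CPM) and PAM+LPS+CpGB lowest (7.65, 29.8 and 11.6). Against Ctrl, 6 combinations were called higher, all of them with cGAMP and without PAM, LPS and CpGB, and 12 were called lower, of which 0 held cGAMP or Zymosan.

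Plaur (chr7:24462484-24475968, plus strand) encodes the urokinase receptor. It stood at 180.1, 112 and 163 CPM in Ctrl, and all 7 single ligands overlapped Ctrl with no call by edgeR. The highest single-ligand mean was that of SeV (153, 329.6 and 197 CPM, log2 0.57 ± 0.29, adjusted p = 0.16), and the lowest that of CpGB (155, 97.0 and 96.8). Combinations with Zymosan were higher. The 22 groups with Zymosan had means of 184 to 309 CPM (median 260.2) and the 42 without it 107 to 231 CPM (median 162), and all of the 10 highest groups held Zymosan while 0 of the 10 lowest did. The highest group was PAM+Zymosan+cGAMP (292, 274 and 362 CPM) and the lowest PAM+CpGB (115, 126 and 80.0), which did not overlap. Of the 56 combinations 3 were called higher than Ctrl, all 3 with both Zymosan and cGAMP, and in 21 every library lay above Ctrl.

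Serpinb2 (chr1:107511423-107535478, plus strand) encodes plasminogen activator inhibitor type 2, a serpin that blocks urokinase and remains largely inside the cell. Ctrl held 2 counts in all, at 13.9, 0 and 9.60 CPM; the library at 0 allows up to 37.4 CPM at 3 counts. With PAM the level was 78.7, 111 and 111 CPM, with CpGB 77.6, 46.0 and 27.7 and with Zymosan 46.0, 38.4 and 32.7. All 9 lay above the Ctrl values, and PAM lay above all libraries of the other single ligands. The ratio of pooled counts to Ctrl was 13.04 (95% interval 3.44 to 110.4) with PAM, 5.72 (95% interval 1.41 to 50.0) with CpGB and 4.82 (95% interval 1.15 to 42.8) with Zymosan, intervals that cover counting error only. The fitted log2 fold change, which depends on the prior count at such low levels, was 3.58 ± 1.19 with PAM (adjusted p = 1.23e-04) and 2.43 ± 1.22 with CpGB (0.0468). Zymosan was not called (adjusted p = 0.17). The CpGB call was lost without any one Ctrl library (adjusted p = 0.0532 to 0.148), without CpGB replicate 1 or 2 (0.0997 and 0.0682), with RLE factors (0.0591), with library sizes alone (0.0718) and by DESeq2 (0.103). LPS (22.3, 22.2 and 4.47 CPM), cGAMP, SeV and HMW had means of 8.59 to 16.3 CPM and overlapped Ctrl.

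Of the 56 combinations 37 were called higher than Ctrl for Serpinb2, 36 of them with PAM, LPS or CpGB, and in 42 every library lay above the Ctrl values as counted. By design, most of the 56 combinations hold PAM, LPS or CpGB. In 28 of 56 every library lay above the 37.4 CPM that the Ctrl library at 0 allows. In the presence of PAM, LPS or CpGB, the 15 groups that also held Zymosan stood at 45.4 to 202 CPM and the 34 that did not at 16.3 to 114. In their absence the 7 groups with Zymosan stood at 23.8 to 52.5 and the 8 without it at 6.36 to 21.6, with no overlap of the group means. The highest group was PAM+Zymosan+CpGB (230.3, 178 and 197 CPM), next to PAM+Zymosan (263, 191.5 and 109.9), and 8 of the 10 highest groups held Zymosan.

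Thbs1 (chr2:118111876-118127133, plus strand) encodes thrombospondin-1, a secreted matricellular glycoprotein that binds Cd36 and Cd47 and activates latent TGF-beta. Its level was 166, 187 and 67.2 CPM in Ctrl, where the third library was low, 417, 541 and 337 with CpGB, 223, 407 and 267 with PAM and 172, 322 and 291 with SeV. CpGB and PAM lay above all of Ctrl and overlapped each other, and SeV overlapped Ctrl. The log2 fold change was 1.69 ± 0.34 with CpGB (adjusted p = 2.95e-06), 1.18 ± 0.35 with PAM (0.00374) and 1.01 ± 0.36 with SeV (0.0223). Without Ctrl replicate 3 the PAM value became 0.80 (adjusted p = 0.15) and the SeV value 0.67 (0.272), and neither was then called. The PAM call was also lost without PAM replicate 2 (0.0689) and with library sizes alone, where the log2 fold change of 0.998 fell just under the threshold. The SeV call was also lost without SeV replicate 2 or 3 (0.0693 and 0.0579), with RLE factors (0.0507), with library sizes alone (0.0736) and by DESeq2 (0.0738). The platelet marker sum was 416 CPM in Ctrl, 509 with PAM, 253 with SeV and 380.1 with CpGB. LPS, HMW, cGAMP and Zymosan overlapped Ctrl, with means of 149 to 189 CPM. CpGB alone was the highest of all 64 groups, followed by HMW+CpGB (421, 474 and 377 CPM), which overlapped it; LPS+Zymosan+cGAMP was lowest (160.3, 111 and 89.5). Of the 10 highest groups 7 held CpGB and 0 held LPS, Zymosan or cGAMP. All 13 combinations called higher than Ctrl held PAM or CpGB and 0 held LPS or cGAMP.

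Fn1 (chr1:71585520-71653200, minus strand) encodes fibronectin, an adhesive glycoprotein that binds integrins and collagen. It was highest in Ctrl, at 1080.4, 1159.9 and 1133 CPM, of all 64 groups. Of the macrophage markers, Lyz2 and Csf1r were also highest in Ctrl of all 64 groups (9450.1 and 1718 CPM). Every library lay below Ctrl in 54 and 56 of the 56 combinations for these genes. Cd14, Fcgr1 and Mertk did not share this, with every library below Ctrl in 0, 1 and 0 combinations. The part of these markers in the Fn1 levels was not tested. The level of Fn1 was 642, 678 and 699.7 with cGAMP, 553, 766 and 682 with CpGB and 745, 787 and 751 with Zymosan. Every single ligand but PAM (774, 1096 and 1033 CPM) lay below all of Ctrl, and no single ligand reached the fold threshold. The adjusted p passed with cGAMP (log2 -0.74 ± 0.19, 0.00156), CpGB (-0.73 ± 0.19, 0.00143) and Zymosan (-0.56 ± 0.19, 0.0375). In 55 of 56 combinations every library lay below Ctrl. Of these, 6 were called lower, all of them with Zymosan, at log2 fold changes of -1.22 to -1.01. The lowest group was HMW+Zymosan+cGAMP (521, 478 and 451 CPM). The 22 groups with Zymosan had means of 484 to 768 CPM (median 588) and the 42 without it 558 to 1124 CPM (median 769).

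**Figure D2:**
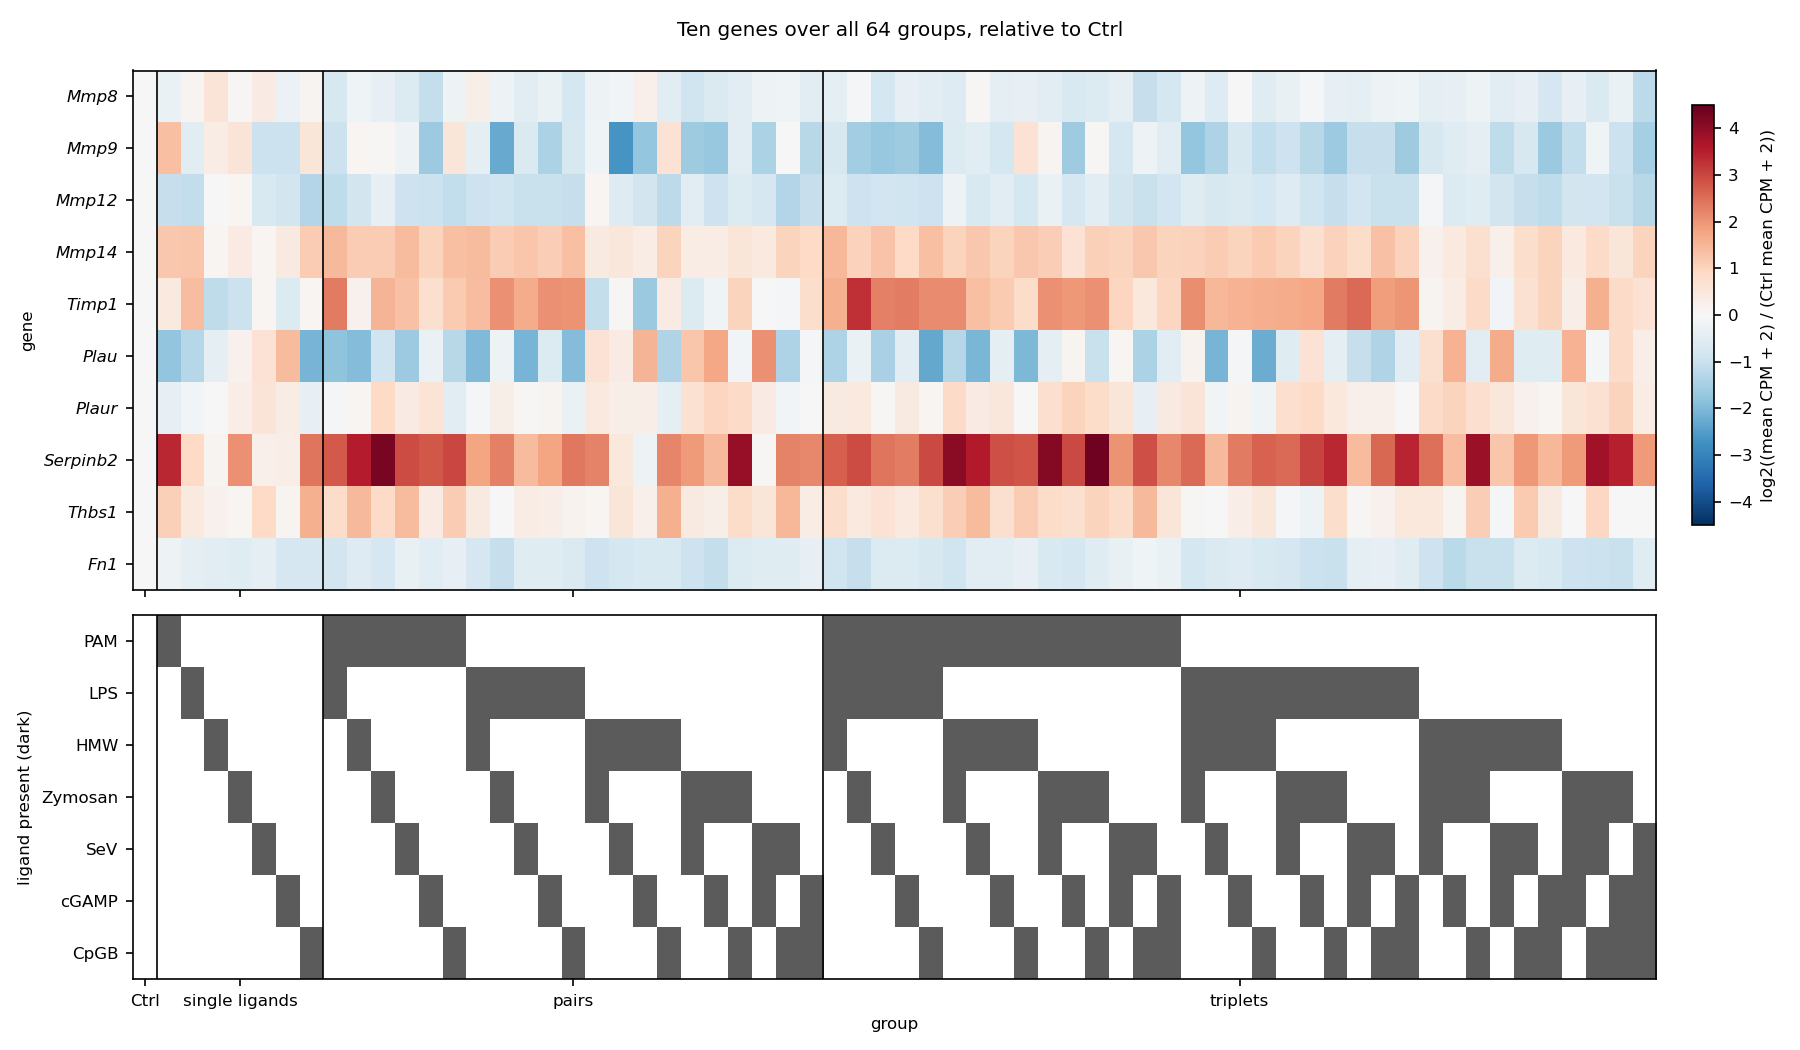
Log2 ratio of each group's mean level to that of Ctrl, with 2 CPM added to both (colour, blue lower and red higher), for the 10 genes (rows, upper panel) in all 64 groups (columns); the lower panel marks the ligands of each group. Mmp14 and Serpinb2 were higher over most columns with PAM, LPS or CpGB, and Mmp12 and Fn1 were lower over nearly all columns. Plau was highest in the 7 columns with cGAMP and none of PAM, LPS and CpGB, and was above Ctrl in some others.

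Over the 56 combinations the 10 genes gave 149 calls in 560 tests, 112 higher (20.0%) and 37 lower (6.61%), where 14.9% and 9.54% of all gene tests were called. Of the 112 higher calls, 37 were of Serpinb2 and 19 of Timp1. Both passed the filter on low counts through stimulated groups in which they were high, so the higher share is no test of the 10 genes against all genes. All 56 combinations share the same 3 Ctrl libraries. The split of higher and lower calls depended on the scaling: 83 higher and 81 lower with RLE factors, 64 and 125 with library sizes alone, 70 and 81 by DESeq2, and 143 and 14 without the filter on low counts. Over all tested genes the shares called higher and lower were 12.9% and 12.7% with RLE factors, 10.9% and 18.1% with library sizes alone, 11.6% and 11.7% by DESeq2 and 5.38% and 2.08% without the filter. Over all tested genes the median difference from Ctrl shifted by -0.07 to -0.14 under RLE factors and by -0.03 to -0.30 under library sizes alone, depending on the ligand; the values given here are on the TMM scale. With single ligands the split was 10 higher and 5 lower on the TMM scale, 7 and 5 with RLE factors and 4 and 7 with library sizes alone.

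The effect of adding each ligand was then averaged over 22 matched differences, each a group with the ligand minus the same group without it (Ctrl, 6 single ligands and 15 pairs), so that Ctrl enters only 1 of 22. A call needed an adjusted p under 0.05 and an average log2 difference of at least 0.5. Of 70 averages 16 were called, 11 higher and 5 lower. Of the 11 higher averages, 4 were of Timp1 and 4 of Serpinb2. Both passed the filter on low counts through groups in which they were high, which limits a comparison with the shares of all genes. The median average of the 10 genes lay between -0.14 with cGAMP and 0.14 with PAM, and that of all tested genes between -0.05 and 0.02. Zymosan raised 4 genes and lowered 0 (over all genes 8.58% higher and 3.81% lower), LPS raised 2 and lowered 2 (14.9% and 11.0%), and PAM raised 2 and lowered 1 (6.53% and 5.89%). CpGB raised 2 and lowered 1 (6.12% and 5.06%), and cGAMP raised 1 and lowered 1 (14.3% and 10.3%). HMW and SeV gave 0 calls by edgeR and by DESeq2, with 2 and 4 genes at an unadjusted p under 0.05; over all genes HMW called 0.297% and 0.0847%, and SeV 7.90% and 2.58%.

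Timp1, the metalloproteinase inhibitor, rose on adding LPS by 2.01 ± 0.15 on the log2 scale (adjusted p = 2.63e-38). It was higher in 22 of 22 matched pairs of groups, and in 19 every library with LPS lay above every library without it. PAM raised it by 1.29 ± 0.15 (22 of 22), CpGB by 0.77 ± 0.15 (17 of 22) and Zymosan by 0.58 ± 0.15 (17 of 22; adjusted p = 7.82e-18, 8.00e-07 and 6.15e-04). The Zymosan call was lost without replicate 1 of all groups (0.45, adjusted p = 0.0594), and without replicate 2, where its value of 0.497 fell just under the fold threshold. Among the proteases, Mmp9 fell on adding cGAMP (-0.93 ± 0.15; lower in 19 of 22; adjusted p = 4.74e-09) and LPS (-0.83 ± 0.15; 16 of 22; 3.64e-07). Mmp14 and Mmp12 had no average past the fold threshold. For Mmp14 the averages were 0.47 ± 0.03 with LPS and 0.44 ± 0.03 with PAM, at adjusted p of 2.91e-30 and 2.68e-28. CpGB gave 0.26 ± 0.03, while Zymosan gave -0.16 ± 0.03 (lower in 18 of 22) and cGAMP -0.15 ± 0.03 (17 of 22). For Mmp12 the positive averages were 0.30 ± 0.03 with Zymosan (20 of 22 higher) and 0.20 ± 0.03 with HMW (18 of 22), and CpGB gave -0.28 ± 0.03. LPS gave -0.18 ± 0.03 and cGAMP -0.13 ± 0.03. The PAM average was -0.03 ± 0.03, with 12 of 22 differences higher and the lowest, -1.04, against Ctrl. Mmp8 had 0 calls by edgeR in this comparison, with averages of -0.31 (PAM) to -0.20 for the 5 ligands at an unadjusted p under 0.05.

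In the plasminogen system, adding cGAMP raised Plau by 1.32 ± 0.11 (adjusted p = 4.65e-27), with 22 of 22 matched groups higher and 14 with no overlap of libraries. Zymosan raised it by 0.89 ± 0.11 (20 of 22; 6.99e-14). Plau fell on adding PAM (-0.98 ± 0.12; 18 of 22 lower), LPS (-0.89 ± 0.12; 20 of 22) and CpGB (-0.69 ± 0.12; 18 of 22), with adjusted p = 2.75e-13, 1.39e-11 and 1.99e-07. Plaur, whose level no single ligand changed by the rule, rose on adding Zymosan by 0.68 ± 0.05 (adjusted p = 5.17e-29), in 22 of 22, and cGAMP gave 0.36 ± 0.05 (20 of 22; 4.00e-10), under the fold threshold. Serpinb2 rose with PAM (1.75 ± 0.14; 22 of 22; adjusted p = 2.77e-32), Zymosan (1.36 ± 0.14; 22 of 22; 2.18e-20) and CpGB (1.26 ± 0.15; 18 of 22; 8.81e-18). Its LPS average of 0.56 ± 0.15 (14 of 22; adjusted p = 1.14e-04) fell under the fold threshold with library sizes alone (0.43), without replicate 2 (0.49) and without replicate 3 (0.48). For the matrix glycoproteins no average passed the fold threshold on the TMM scale, though Thbs1 with cGAMP passed it with library sizes alone (-0.56) and after thinning (-0.52), and Thbs1 with LPS after thinning (-0.51). Thbs1 averaged 0.42 ± 0.06 with PAM, 0.33 ± 0.06 with CpGB, -0.42 ± 0.06 with cGAMP and -0.36 ± 0.06 with LPS, and Fn1 -0.36 ± 0.04 with Zymosan, lower in 21 of 22 (adjusted p = 1.61e-15).

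**Figure D3:**
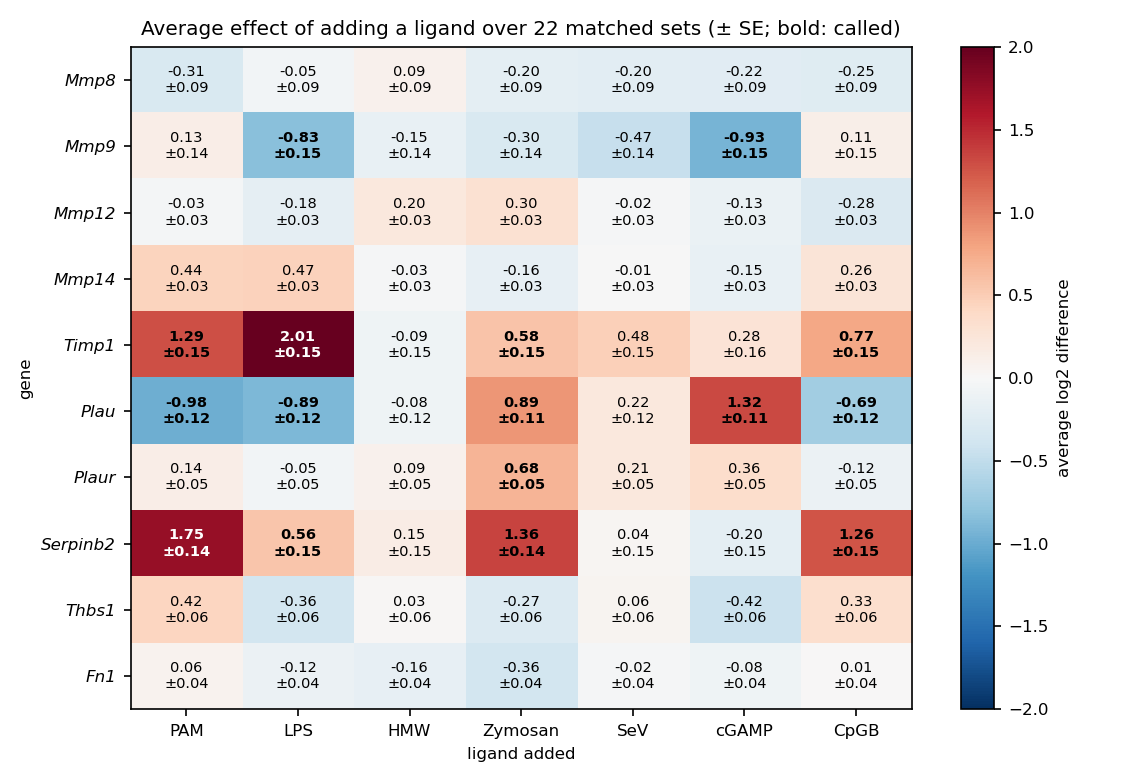
Average log2 difference (colour and number, with its SE) on adding each of the 7 ligands (columns) for the 10 genes (rows), over 22 matched sets; bold values were called. Timp1 with LPS (2.01), Serpinb2 with PAM (1.75) and Serpinb2 with Zymosan (1.36) had the highest averages, and Plau with PAM (-0.98) the lowest.

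**Figure D4:**
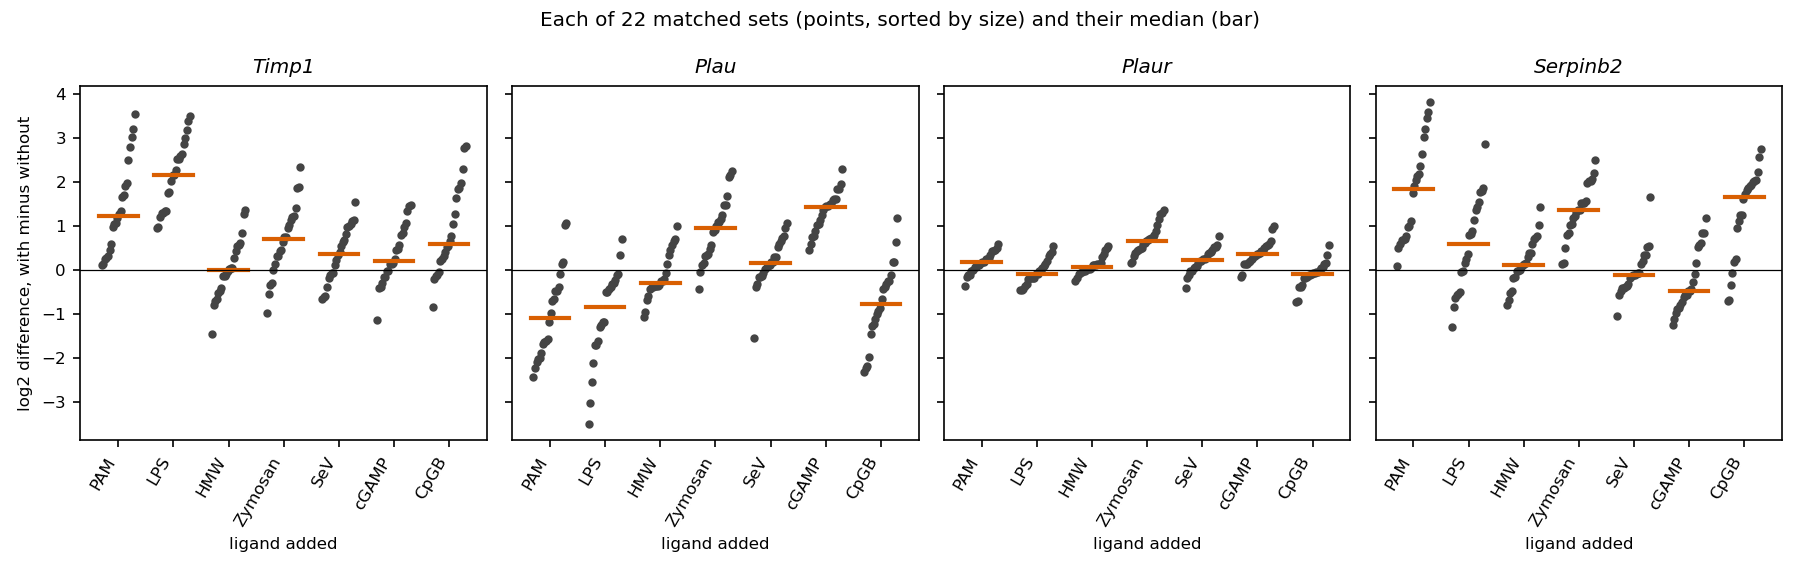
Log2 difference (vertical axis) on adding each ligand in each of the 22 matched sets (points, sorted by size; the bar is their median) for Timp1, Plau, Plaur and Serpinb2. All 22 points lay above 0 for Timp1 with LPS (0.96 to 3.50), Plau with cGAMP (0.46 to 2.28), Plaur with Zymosan (0.15 to 1.35) and Serpinb2 with Zymosan (0.13 to 2.50).

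Whether a pair gave more or less than both single ligands added on the log2 scale was tested for 21 pairs (adjusted p under 0.05). The 10 genes gave 22 calls in 210 tests, 14 positive and 8 negative, where 1.08% and 3.50% of all gene tests were called; each interaction uses the same Ctrl libraries. At least 1 pair was called for 6 of the 10 genes, and for 27.0% of all tested genes. Without the filter on low counts 6 of the 22 calls were lost, and 10 were lost after all libraries were thinned to the lowest total. Mmp12 gave 12 of the 14 positive calls, in all 10 pairs among PAM, LPS, SeV, cGAMP and CpGB and for Zymosan with PAM or CpGB. With LPS+CpGB it stood at 3681, 4008 and 4156 CPM, near both single ligands (3706 and 3225), so that the interaction was 1.42 ± 0.19 (adjusted p = 1.46e-10). PAM+CpGB (1.25 ± 0.19, 3.12e-08), cGAMP+CpGB (1.11 ± 0.19, 1.66e-06) and PAM+LPS (1.01 ± 0.19, 1.20e-05) followed. The Mmp12 calls for PAM+Zymosan, PAM+SeV, Zymosan+CpGB and SeV+CpGB were each lost without Ctrl replicate 2 and without Ctrl replicate 3 (adjusted p of 0.0611 to 0.187), and the first also without Ctrl replicate 1 (0.0605). Mmp14 gave 4 negative calls: PAM+LPS (902, 780.0 and 879 CPM; -1.03 ± 0.24, adjusted p = 7.09e-04), LPS+CpGB (-1.06 ± 0.25, 2.92e-04), PAM+CpGB (-1.03 ± 0.25, 0.00102) and Zymosan+CpGB (-0.97 ± 0.26, 0.0118). The 3 pairs among PAM, LPS and CpGB had means of 786 to 854 CPM, where each of these ligands alone had 675 to 735. Leaving out replicate 3 of all groups ended the calls for PAM+LPS, PAM+CpGB and Zymosan+CpGB (adjusted p = 0.0892, 0.11 and 0.111).

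Thbs1, high with CpGB alone, stood at 128, 181 and 165 CPM with LPS+CpGB, below all 3 libraries of CpGB alone, and the interaction was -1.90 ± 0.45 (adjusted p = 3.01e-04). It was also negative with PAM+CpGB (-1.62 ± 0.42, 0.00207) and cGAMP+CpGB (-1.45 ± 0.46, 0.0291); the last was lost without Ctrl replicate 3 (adjusted p = 0.194) and by DESeq2 (0.0575). Mmp9, high with PAM alone, stood at 54.7, 16.0 and 10.6 CPM with PAM+LPS (-2.27 ± 0.81, adjusted p = 0.0432). Plau stood at 47.7, 37.0 and 24.0 CPM with PAM+CpGB, near the level with either ligand alone (2.78 ± 1.00, 0.0469). Both of these calls were lost without any one of the 3 Ctrl libraries (adjusted p of 0.0595 to 0.0666 for Mmp9 and 0.0562 to 0.11 for Plau). Fn1 stood at 747, 968 and 878 CPM with cGAMP+CpGB, above both single ligands in mean (673 and 667; 1.09 ± 0.26, 0.00184). Timp1, Serpinb2, Plaur and Mmp8 gave 0 calls.

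A pair was called above or below both of its single ligands when its log2 difference from each was 1 or more in the same direction and the larger p, adjusted, was under 0.05. In 210 tests 1 pair was above and 0 were below by edgeR (8 and 9 at an unadjusted p under 0.05), where 0.353% and 0.0504% of all gene tests were called. The pair was Zymosan+CpGB for Serpinb2, at 155, 102 and 179 CPM against 77.6, 46.0 and 27.7 with CpGB and 46.0, 38.4 and 32.7 with Zymosan, with no overlap. The log2 difference from the nearer single ligand was 1.67 (adjusted p = 0.00479), and without replicate 3 of all groups it was 1.08 (0.954) and no longer called. By the same rule 0 of 350 triplet tests were above or below all 3 of their pairs by edgeR and 0 by DESeq2, with 3 above and 0 below at an unadjusted p under 0.05; over all genes 0.0115% and 0.00% were called.

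A wider list of 84 genes for metalloproteinases, sheddases, their inhibitors, the plasminogen and coagulation systems, matrix proteins and matrix receptors had 35 tested genes. Of these, 11 were called higher and 3 lower with LPS, 10 and 4 with PAM, 8 and 5 with CpGB, 6 and 1 with SeV, 4 and 3 with cGAMP, 3 and 1 with Zymosan and 0 and 0 with HMW; the shares of all genes called are those given for each ligand above. Of the 8 genes with the largest fitted change with any single ligand, 7 are described here. Among them, Vcan, Hpse, Mmp2 and F3 had 0 of 3 Ctrl libraries above the minimum of the filter on low counts and passed it through groups in which they were higher. Lcn2, whose product lipocalin-2 binds gelatinase B, rose from 52.5 ± 15.6 CPM (SD, n = 3) in Ctrl to 898 ± 132 with PAM, a log2 fold change of 4.12 ± 0.43 (adjusted p = 3.43e-29), and also rose with LPS (2.95) and CpGB (2.67). Procr, the endothelial protein C receptor, rose with Zymosan (2.55), LPS (2.41), PAM (2.16) and CpGB (2.00), from 64.5 CPM in Ctrl to 254 to 368. Sdc4, the heparan sulfate proteoglycan syndecan-4, rose with all ligands but HMW and Zymosan, most with LPS (2.56, 186 to 1129 CPM). F3, tissue factor, was called with Zymosan and with no other single ligand, though the difference between ligands was not tested; with 3 counts in Ctrl, the ratio was 8.03 (95% interval 2.58 to 40.4).

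Mmp2, the gelatinase that MT1-MMP activates, was called higher with CpGB, PAM and LPS, as was Mmp14; with 2 counts in Ctrl, the ratio with CpGB was 8.95 (95% interval 2.30 to 76.7). Vcan, the proteoglycan versican, was called higher with LPS, PAM, SeV, CpGB and cGAMP; with 2 counts in Ctrl, the ratio with LPS was 18.3 (4.91 to 154). Hpse, heparanase, which cuts heparan sulfate, rose with cGAMP (1.94, 37.2 to 150.3 CPM) and SeV (1.64) and fell with PAM, where 2 counts stood against 10 in Ctrl (ratio 0.0966, 0.0103 to 0.453).

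Over the 64 group means (log2 CPM), the 10 genes did not share one pattern. These correlations describe groups that share ligands, and no p is given. The strongest was negative, between Mmp14 and Plau (Pearson r = -0.81); Mmp14 and Timp1 had 0.68, Plau and Plaur 0.57, Timp1 and Serpinb2 0.56, and Plaur and Fn1 -0.53. Among tested genes that averaged 50 CPM or more, those with the highest r were Cd38 (0.908), Ehd1 (0.908), Saa3 (0.902) for Mmp14, Fabp5 (0.889), Lrrc32 (0.858), H2-K2 (0.856) for Plau and Plk2 (0.890), Hbegf (0.843), Psmd8 (0.828) for Plaur. Serpinb2 was most like Tnip1 (0.861), Cebpb (0.853), Ier3 (0.853) and Timp1 most like Srgn (0.850), Cxcl16 (0.845), Acp5 (0.840). The likeness was lower for Thbs1, with Stard5 (0.775) at the top, and Mmp12 with Clec4n (0.760). For Mmp9 it was nearly equal with Pf4 (0.734), the platelet factor 4 gene, Ppp1r14b (0.733) and Cd302 (0.732). The likeness was lowest for Fn1 with Rap2b (0.633) and Mmp8 with Cox7a2l (0.582).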

How the data were processed

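RNA of the 64 groups was counted per gene with molecular identifiers. The authors deposited raw UMI counts in 1 table of the whole series, per the labels and the table's header, and whole numbers were found throughout. The submitters' processing notes name BWA 0.7.15 and mm10; the role of the aligner, the collapsing of UMIs and the annotation are not given in the sources used here. The 10 members and the wider list were chosen with earlier results of these data known. From the counts as deposited, edgeR 4.0.16 (R 4.3.3, limma 3.58.1) fitted 1 quasi-likelihood model over 64 groups of 3, after filterByExpr (4720 of 23481 genes; at least 10 counts in a library of median depth in 3 libraries) and TMM scaling, with Benjamini-Hochberg adjustment over all tested genes within each contrast. SE values come from the same model. All 10 members are named; of the wider list the 8 tested genes with the largest fitted change among those called were named, except 1 that is not reported here, and for each member the most like genes. Intervals of ratios are exact and cover counting error only; a count of 0 allows up to 3 counts. No 2 libraries held identical counts, and replicates differed by more than sampling noise (chi-square per degree of freedom 1.14 to 6.04 within groups, median 1.38), so that all were kept. The scripts were tested on simulated data. Alternatives were RLE factors, library sizes alone, no filter, DESeq2 1.42.0, all libraries thinned to the lowest total, a fit of Ctrl and single ligands only, a replicate block, no fold threshold, and leaving out libraries.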

Additional observations from a re-analysis of the deposited data

Results flagged for a closer look

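In 6 of the 10 genes the effect of one ligand differed by the presence of another in at least 1 of 21 pairs, by the test of the interaction itself, where 27.0% of all tested genes had such a pair. For each gene, the pair with the largest interaction among those that passed the test is given. For Mmp9 it was PAM+LPS, at -2.27 on the log2 scale: without PAM the mean level was 54.3 CPM in Ctrl and 38.6 with LPS, a difference that did not pass the test, and with PAM it was 140.8 without LPS and 27.1 with it. For Thbs1 it was LPS+CpGB, at -1.90, with CpGB alone at 432 CPM and the pair at 158. For Mmp14 it was LPS+CpGB, at -1.06, with the pair at 794 CPM and the single ligands at 735 and 675. For Mmp12 it was LPS+CpGB, at 1.42, with the pair at 3948 CPM and the single ligands at 3706 and 3225. For Plau it was PAM+CpGB, at 2.78, with 36.2 CPM for the pair and 24.2 and 19.1 for the single ligands. For Fn1 it was cGAMP+CpGB, at 1.09, with 864 CPM for the pair and 673 and 667 for the single ligands. The Mmp9 and Plau values rest on 14 and 22 Ctrl counts and were lost without any one Ctrl library, as given with those results.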

How the results depend on the processing

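The count of calls with single ligands was 15, and 11 to 16 under the other settings except 20 with no fold threshold; leaving out libraries gave 9 (without replicate 3 of all groups) to 16. For combinations it was 149, 97 after thinning all libraries to the lowest total, 257 with no fold threshold and 151 to 189 otherwise; leaving out libraries gave 103 to 154. Average effects gave 16 calls, 12 after thinning, 42 with no fold threshold (a setting chosen after seeing the data) and 16 or 17 otherwise, and 15 to 16 without a replicate number. Interactions were 22, 11 after thinning and 19 to 24 otherwise; leaving out libraries gave 11 to 20. The pair above both single ligands numbered 1, 0 after thinning and 0 to 1 without a replicate number, and the triplets 0 throughout. After thinning, members with few counts failed the filter and have no value, and fewer counts were tested. No fold change, average or interaction of the 10 genes that was recomputed singly changed direction; combinations against Ctrl were recomputed as counts and the wider list was not, and the splits of higher and lower calls shifted as given with them. Of 15 calls with single ligands 5 passed under every setting run, of 16 averages 14 and of 22 interactions 7. Of results short of a call, 3 with single ligands (Timp1 and Plau with LPS, Mmp12 with cGAMP) and 5 averages (Thbs1 with LPS and cGAMP, Mmp9 with Zymosan and SeV, Timp1 with SeV) passed under at least 1 setting. The replicate block gave 15, 161, 16, 22, 1 and 0 calls in the same order; deviations of same-numbered libraries had a mean r of 0.00595 (lowest -0.235) against -0.00296 for other numbers. As a hint from the data, not the design, 160 libraries correlated best with their own number, above the 1 in 3 that chance gives. Median depth also rose with the number, from 136500 to 185756 and 202712 counts. The labels do not say that the numbers are pairs, so they enter only in the replicate block. What libraries of one number share was not tested. Low Ctrl depth limits Timp1, Serpinb2 and Mmp9 most, with 4, 2 and 14 Ctrl counts.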
